A study of Mus musculus with 8 samples.

Results

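The 10 genes described here serve protein folding in the endoplasmic reticulum (ER): the chaperones Hspa5 and Hsp90b1, the lectin chaperones Calr and Canx, the disulfide isomerases Pdia3, Pdia4 and Pdia6, the co-chaperone Dnajb9, the transcription factor Xbp1 and the degradation factor Herpud1. They were chosen by name, as members of this machinery, and all 10 were found by symbol among the 12528 genes of the deposited table. RNA came from mouse embryonic fibroblasts (MEFs) of WT and Cav1KO littermates, immortalized and grown for 24 h at low confluence on fibronectin-coated polyacrylamide hydrogels that were stiff or soft. Cav1 encodes caveolin-1, the main coat protein of caveolae, which are small pits of the plasma membrane. Each genotype on each hydrogel made 1 of 4 groups (WT stiff, WT soft, and likewise for Cav1KO), with 2 RNA-seq libraries each. How many cell lines stood for each genotype is not stated in the sources used here, so genotype and line cannot be told apart. Nothing in the labels says that the libraries of a group came from separate cultures, and p-values then measure only the spread between these samples, which may be technical.

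Proteins that enter the ER fold with the help of these gene products. Hspa5, also called BiP or GRP78, binds unfolded chains and holds the stress sensors inactive, and Hsp90b1, or GRP94, matures a narrower set of clients such as integrins. Calr and Canx hold glycoproteins through their sugar chains, and Pdia3 joins them to form disulfide bonds. Pdia4 and Pdia6 are further thiol oxidoreductases. Dnajb9, or ERdj4, stimulates the ATPase of Hspa5. When unfolded protein accumulates, the unfolded protein response sets in. Ern1 splices the mRNA of Xbp1, Atf6 is cut into a transcription factor, and Eif2ak3 slows translation. Herpud1 organizes the ubiquitin ligase complex that sends misfolded protein back to the cytosol for degradation. In fibroblasts this machinery handles secreted collagen and fibronectin. The counts were gene-level, so spliced and unspliced Xbp1 mRNA were not distinguished.

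The promoters of these genes are shown because several hold an element named for ER stress. The ER stress response element (ERSE) consists of CCAAT and CCACG with any 9 bases between them and is known to be bound by NF-Y and Atf6. Windows of 250 bases before to 50 after each gene's start were taken from RefSeq on GRCm38.p6 and searched on both strands. ERSE was present in 5 of the 10 member promoters and in 39 of 32851 promoters in all (0.119%). The sites are printed below 5′ to 3′ on the strand of the gene, with 20 bases on either side and the element in capitals. For Calr and the second site of Hsp90b1 the element lies in the opposite orientation and reads as its reverse complement.
Hspa5, chr2:34772005-34772063, plus strand: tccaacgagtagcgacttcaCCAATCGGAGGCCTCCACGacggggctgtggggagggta
Hsp90b1, chr10:86705618-86705676, minus strand: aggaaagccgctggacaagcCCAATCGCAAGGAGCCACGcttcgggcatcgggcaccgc
Hsp90b1, chr10:86705513-86705571, minus strand: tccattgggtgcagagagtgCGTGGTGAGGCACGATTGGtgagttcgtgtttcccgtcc
Calr, chr8:84847055-84847113, minus strand: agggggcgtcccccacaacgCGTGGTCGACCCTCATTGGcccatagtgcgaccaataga
Canx, chr11:50325780-50325838, minus strand: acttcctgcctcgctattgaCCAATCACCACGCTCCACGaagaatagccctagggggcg
Pdia6, chr12:17266471-17266529, plus strand: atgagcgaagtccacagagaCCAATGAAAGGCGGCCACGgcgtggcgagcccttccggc
The element began 65 bases before the RefSeq start in Hspa5, 98 in Pdia6, 145 in Canx and 162 in Calr, and 212 and 107 bases before it in Hsp90b1. The Hspa5 site lies inside the gene model of GENCODE, which starts farther upstream than that of RefSeq.

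A shorter relative, ERSE-II, has ATTGG and CCACG with 1 base between them. It was searched after the promoters had been seen, and was found in Herpud1 alone among the members and in 12 promoters in all (0.0365%). It is shown with 20 bases on either side and began 52 bases before the start.
Herpud1, chr8:94386357-94386407, plus strand: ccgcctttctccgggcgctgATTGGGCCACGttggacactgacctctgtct
The core TGACGTGG of the unfolded protein response element was in 0 of the 10 member windows and in 222 windows overall (0.676%). None of the 3 elements was in the windows of Pdia3, Pdia4, Dnajb9 or Xbp1, which says only that these letters are not in those windows.

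The libraries held 17089836 to 19944952 reads, recovered from the deposited CPM, normalized by the trimmed mean of M values (TMM), in which the reads of a gene are divided by its library's effective size. A single read was worth 0.0502 to 0.0604 CPM. Every member was read deeply, from at least 341 reads for Dnajb9 to 35706 for Calr. Cav1 itself had 949.8 to 1157 CPM with the WT label and at most 0.411 CPM with the Cav1KO label. Replicates of each group differed beyond sampling noise, by a chi-square over its degrees of freedom that was 3.5 in Cav1KO soft and 12.9 to 18.6 elsewhere. Of 10 fibroblast markers, 9 were listed and Thy1 was not. Their sum moved with the groups. It was 4500 to 5610 CPM in Cav1KO stiff, 9255 to 9428 CPM in WT stiff, 12046 to 12196 CPM in WT soft and 13525 to 13575 CPM in Cav1KO soft libraries. Single markers did not all follow it. In WT cells Col1a1 was higher on stiff (2612 and 2515 against 2035 and 2273 CPM), and the other listed markers were higher on soft. On stiff, Pdgfrb was higher in Cav1KO (108.6 and 80.6 CPM) than in WT libraries (66.2 and 62.7 CPM). Col3a1 and Pdgfra overlapped there, and the other listed markers were lower in Cav1KO. Of 5 macrophage markers only Cd68 was listed, at 0.552 to 4.55 CPM, and no marker of epithelial, endothelial or muscle cells was. The part of the fibroblast marker level in the results below was not tested. In bulk RNA, fewer cells of a type and less RNA per cell cannot be told apart.

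Together the 10 genes took 0.379% to 0.581% of the reads of a library. Per kilobase of 1 annotated transcript each, Calr had the highest level in every group, from 550.0 CPM per kb in Cav1KO soft to 907.9 CPM per kb in Cav1KO stiff, and Dnajb9 the lowest, from 7.91 in WT stiff to 17.4 in WT soft. In WT stiff cells the order below Calr was Canx (180.4 CPM per kb), Pdia3 (163.4), Pdia6 (137.5), Hspa5 (116.4), Hsp90b1 (81.1), Pdia4 (75.9), Herpud1 (34.9) and Xbp1 (31.6). There, Hsp90b1 and Pdia4 did not differ beyond their spread, nor did Herpud1 and Xbp1. In Cav1KO stiff cells it was Pdia3 (280.1 CPM per kb), Pdia6 (227.9), Canx (216.8), Hsp90b1 (158.1), Pdia4 (152.7), Hspa5 (125.4), Xbp1 (37.9) and Herpud1 (32.3). Pdia6 overlapped Canx there, and Hsp90b1, Pdia4 and Hspa5 overlapped each other. On soft gels Pdia3 stood just below Calr in both genotypes, at 199.8 CPM per kb in WT and 247.9 CPM per kb in Cav1KO cells. Hspa5 ranked the fifth of 10 in WT and the seventh in Cav1KO cells on either substrate.

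**Figure D1:**
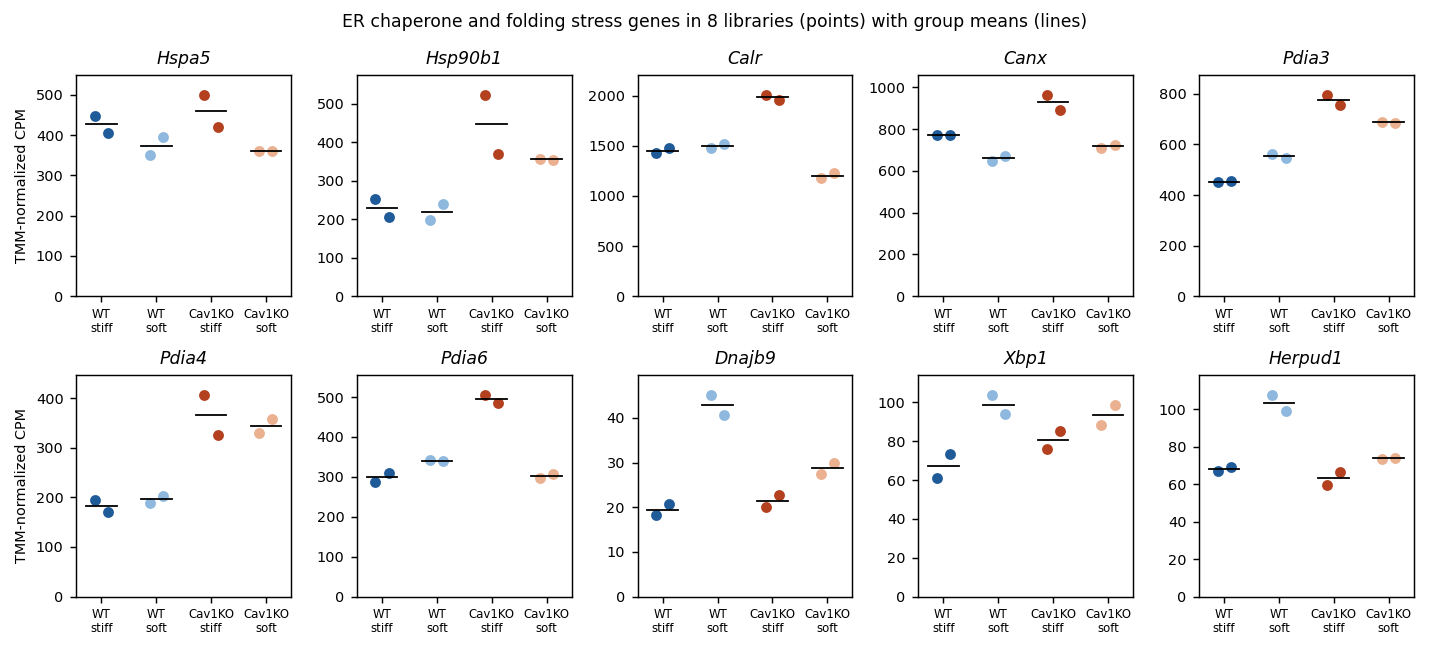
TMM-normalized CPM of each of the 10 genes in the 8 libraries. Points are libraries, lines are group means and each panel has its own axis from 0. Hsp90b1, Pdia3 and Pdia4 stand higher in all Cav1KO than in all WT libraries. Calr and Pdia6 are highest in Cav1KO stiff, and Dnajb9 and Herpud1 are highest in WT soft.

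Effects are log2 fold changes on log2(CPM + 1), tested with limma over the 12494 genes that passed a filter on low values, which all 10 members passed, and called at a Benjamini-Hochberg adjusted p under 0.05. In WT cells, stiff against soft, 5 members were called lower (Dnajb9, Herpud1, Xbp1, Pdia3 and Pdia6), where 26.3% of all genes tested were, and 1 was called higher (Canx), where 22.1% were. In Cav1KO cells 5 were called higher (Calr, Pdia6, Canx, Hspa5 and Pdia3), against 27.9% of all genes, and 2 were called lower (Dnajb9 and Herpud1), against 28.2%. The median effect of the 10 members was -0.15 in WT and 0.24 in Cav1KO cells, and that of all genes tested was -0.02 in both. The difference between these effects, taken as the WT effect minus the Cav1KO effect, was tested on its own. It was called below 0 for 4 members (Pdia6, Calr, Dnajb9 and Pdia3), where 6.0% of all genes were. It was called above 0 for 0 members by limma, with 0 at an unadjusted p under 0.05, 0 by edgeR and 0 by DESeq2, where 4.47% of all genes were. The estimate was below 0 for all 10, with a median of -0.36 against -0.07 over all genes. This sign was thus also the commoner one among all genes, and the 10 estimates rest on the same 8 libraries. Without Cav1KO stiff replicate 1 the estimate for Hsp90b1 was 0.0155. The estimates of the WT and Cav1KO effects rest on different libraries, whereas the effects of stiffness and of genotype share libraries. Standard errors and calls rest on a spread taken from all 8 libraries, so the calls in WT and Cav1KO cells are not independent.

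**Figure D2:**
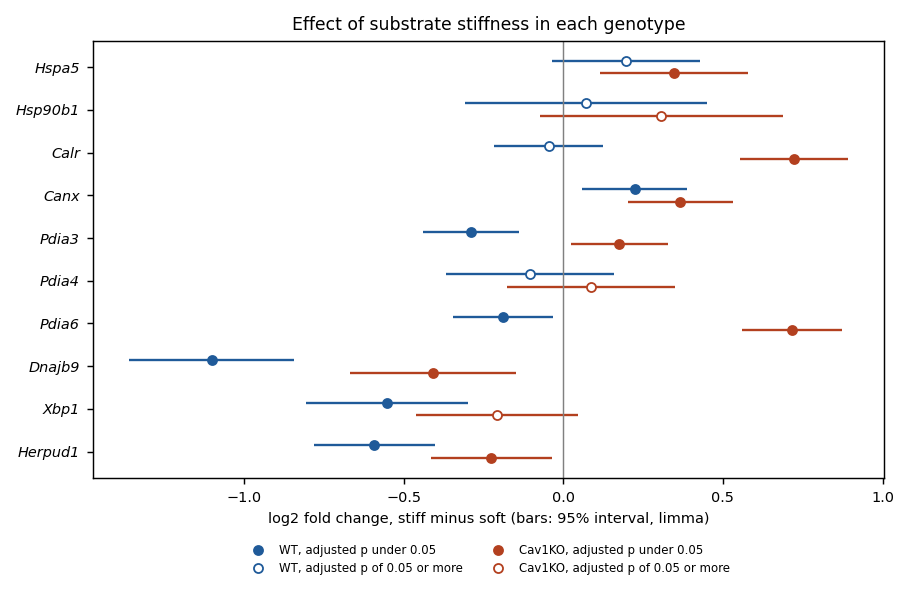
Log2 fold change of each member on stiff relative to soft hydrogel in WT and in Cav1KO cells, with 95% intervals from limma. Filled points have an adjusted p under 0.05. Every Cav1KO point lies to the right of its WT point. Calr (-0.05 in WT, 0.72 in Cav1KO) and Pdia6 (-0.19 and 0.72) lie farthest apart, and Dnajb9 has the lowest effect in WT (-1.10).

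Between genotypes on the stiff hydrogel, 6 members were called higher in Cav1KO cells (Pdia4, Hsp90b1, Pdia3, Pdia6, Calr and Canx), where 25.0% of all genes were. None was called lower by limma, with 0 at an unadjusted p under 0.05, 0 by edgeR and 0 by DESeq2, where 26.6% of all genes were. On the soft hydrogel 3 were called higher (Pdia4, Hsp90b1 and Pdia3), against 24.1% of all genes, and 3 were called lower (Dnajb9, Herpud1 and Calr), against 29.9%. The median genotype effect of the members was 0.36 on stiff and -0.07 on soft, and that of all genes was -0.03 on each.

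**Figure D3:**
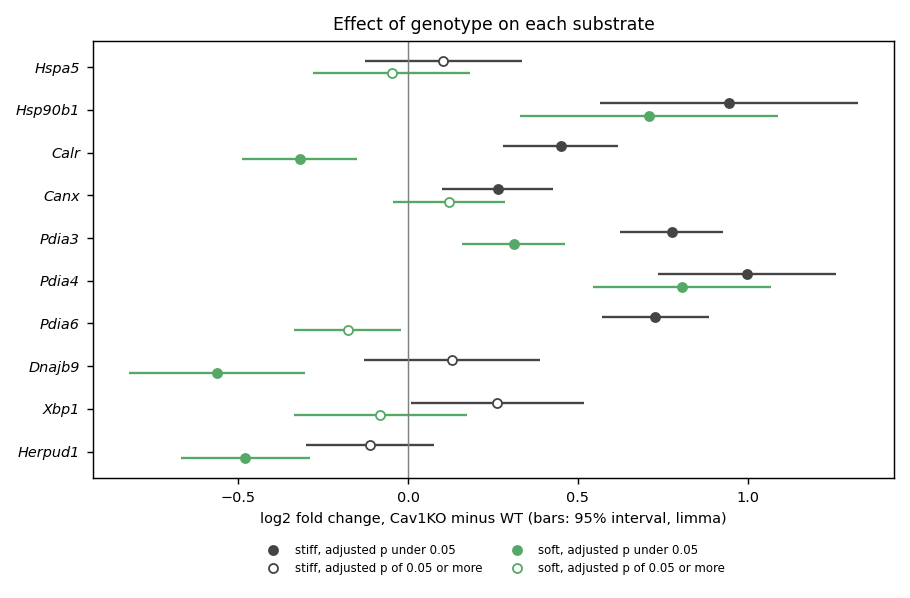
Log2 fold change of each member in Cav1KO relative to WT cells on stiff and on soft hydrogel, with 95% intervals from limma. Filled points have an adjusted p under 0.05. Pdia4, Hsp90b1 and Pdia3 are higher in Cav1KO cells on both substrates. Calr changes side from 0.45 on stiff to -0.32 on soft, and the Hspa5 intervals span 0 on both.

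Hspa5 (ENSMUSG00000026864, GRCm38 chromosome 2 from 34771970 to 34777547, plus strand, 9 exons), the main chaperone of the lumen, had the smallest genotype effect of the 10 genes on both substrates. It was at 448.2 and 406.6 CPM on stiff and 351.6 and 395.1 CPM on soft hydrogel in the WT libraries, and at 500.7 and 420.4 CPM on stiff and 360.4 and 360.1 CPM on soft in the Cav1KO libraries. Both stiff libraries lay above both soft ones in each genotype, whereas the genotypes overlapped on both substrates. In Cav1KO cells it was 1.27-fold higher on stiff (log2 0.35, SE 0.10, limma adjusted p = 0.0178). In WT cells the effect was 0.20 with a 95% interval from -0.04 to 0.43 (limma adjusted p = 0.143), and the difference between the effects was -0.15 with an interval from -0.48 to 0.17. The Cav1KO call was lost without either Cav1KO soft library (0.35 each, limma adjusted p = 0.0825 and 0.0809), without Cav1KO stiff replicate 1 (0.22, limma adjusted p = 0.0922) and with quantile normalization (0.18, limma adjusted p = 0.186). Between genotypes the effect was 0.10 on stiff (interval -0.13 to 0.34) and -0.05 on soft (-0.28 to 0.18).

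Hsp90b1 (ENSMUSG00000020048, chromosome 10 from 86690209 to 86705509, minus strand, 18 exons), the ER member of the Hsp90 family, was set apart by genotype. It was at 252.1 and 206.4 CPM on stiff and 197.4 and 238.7 CPM on soft hydrogel in the WT libraries, and at 523.6 and 369.6 CPM on stiff and 356.3 and 354.9 CPM on soft in the Cav1KO libraries. All Cav1KO libraries lay above all WT libraries, and stiff and soft overlapped in WT cells. Cav1KO cells had 1.93-fold more on stiff (log2 0.94, SE 0.17, limma adjusted p = 0.00165) and 1.64-fold more on soft (0.71, SE 0.17, limma adjusted p = 0.00677). The call on soft was lost without WT soft replicate 1 (0.57, limma adjusted p = 0.0596). Replicates of Cav1KO stiff stood 1.42-fold apart, and the effect of stiffness in Cav1KO cells, 0.31 (interval -0.07 to 0.69, limma adjusted p = 0.149), passed the threshold without the second of them (0.56, limma adjusted p = 0.0123). In WT cells that effect was 0.07 (-0.31 to 0.45). Of the 60-base windows of its transcripts, 8.50% also occur in other genes, mostly 1810014B01Rik, a pseudogene on the opposite strand that was listed at 1.13 to 3.50 CPM. The library kit is not described as keeping strand.

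Calr (ENSMUSG00000003814, chromosome 8 from 84841850 to 84846934, minus strand, 9 exons) encodes calreticulin, the soluble lectin chaperone that also stores calcium. It was at 1429 and 1474 CPM on stiff and 1482 and 1516 CPM on soft hydrogel in the WT libraries, and at 2009 and 1957 CPM on stiff and 1179 and 1223 CPM on soft in the Cav1KO libraries. The WT libraries lay between the Cav1KO groups, with Cav1KO stiff above and Cav1KO soft below all of them. Calr was 1.65-fold higher on stiff in Cav1KO cells (log2 0.72, SE 0.07, limma adjusted p = 9.06e-05). Its effect in WT cells was -0.05 (interval -0.22 to 0.12, limma adjusted p = 0.637). The difference between the effects was -0.77 (SE 0.11, limma adjusted p = 0.00752), a call lost without either Cav1KO soft replicate (-0.74 and -0.80, limma adjusted p = 0.0763 and 0.0593). Cav1KO cells had more on stiff (0.45, SE 0.07, limma adjusted p = 0.00116) and less on soft (-0.32, SE 0.07, limma adjusted p = 0.00649). The fall on soft was not called without Cav1KO soft replicate 1 (-0.29, limma adjusted p = 0.0734) or with quantile normalization (-0.07, limma adjusted p = 0.530).

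Canx (ENSMUSG00000020368, chromosome 11 from 50293961 to 50325673, minus strand, 15 exons) encodes calnexin, the membrane-bound counterpart of calreticulin. It was at 774.4 and 770.2 CPM on stiff and 649.4 and 673.4 CPM on soft hydrogel in the WT libraries, and at 965.3 and 890.6 CPM on stiff and 711.8 and 726.0 CPM on soft in the Cav1KO libraries. The 4 groups did not overlap, and stiff lay above soft in both genotypes. The effect of stiffness was 0.22 in WT (SE 0.07, limma adjusted p = 0.0313) and 0.37 for Cav1KO cells (SE 0.07, limma adjusted p = 0.00263), and their difference was -0.14 (interval -0.38 to 0.09). The WT call was fragile. It was lost without any WT or Cav1KO soft library or any WT stiff library (0.20 to 0.25, limma adjusted p from 0.0610 to 0.138), without the mean-variance trend (limma adjusted p = 0.0659) and with quantile normalization (limma adjusted p = 0.0845). On stiff, Cav1KO cells had more (0.26, SE 0.07, limma adjusted p = 0.0146), but not past the threshold without Cav1KO stiff replicate 1 or either WT stiff replicate (0.21 to 0.27, limma adjusted p from 0.0532 to 0.0679). On soft the genotype effect was 0.12 (interval -0.04 to 0.28, limma adjusted p = 0.188), which passed the threshold with quantile normalization (0.30, limma adjusted p = 0.0129). The same scaling moved the Cav1KO stiffness effect to 0.24 (limma adjusted p = 0.0341).
Within a library there was more Calr than Canx everywhere, by 1.85 and 1.91 in WT stiff, 2.28 and 2.25 in WT soft, 2.08 and 2.20 in Cav1KO stiff, and 1.66 and 1.68 in Cav1KO soft libraries, as ratios of CPM. The ratio was thus lower on stiff in WT cells and higher on stiff in Cav1KO cells.

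Pdia3 (ENSMUSG00000027248, chromosome 2 from 121413775 to 121438687, plus strand, 13 exons) encodes ERp57, the isomerase that works with both lectin chaperones. It was at 450.6 and 454.6 CPM on stiff and 560.6 and 546.1 CPM on soft hydrogel in the WT libraries, and at 796.4 and 755.6 CPM on stiff and 688.2 and 685.2 CPM on soft in the Cav1KO libraries. No groups overlapped, and the order of stiff and soft was opposite in the genotypes. All Cav1KO libraries lay above all WT libraries, as for Hsp90b1 and Pdia4. On stiff, WT cells had 1.22-fold less (log2 -0.29, SE 0.07, limma adjusted p = 0.00722). In Cav1KO cells the effect was 0.18 (SE 0.07, limma adjusted p = 0.0496), a call lost when any of the 8 libraries was left out (0.14 to 0.21, limma adjusted p from 0.0558 to 0.194), by edgeR (adjusted p = 0.0557), by DESeq2 (adjusted p = 0.0857) and with quantile normalization (0.01, limma adjusted p = 0.883). The difference between the effects was -0.47 (SE 0.09, limma adjusted p = 0.0273). It was not called without WT stiff replicate 1, any WT soft or any Cav1KO soft replicate (-0.48 to -0.45, limma adjusted p from 0.0568 to 0.135), or without the mean-variance trend (limma adjusted p = 0.0573). Cav1KO cells had more on stiff (0.78, SE 0.07, limma adjusted p = 2.52e-05) and on soft (0.31, SE 0.07, limma adjusted p = 0.00419). Catsper2, which overlaps an exon of Pdia3 on the opposite strand, was listed at 0.658 to 1.83 CPM.

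Pdia4 (ENSMUSG00000025823, chromosome 6 from 47796141 to 47813430, minus strand, 10 exons), which encodes ERp72, followed Hsp90b1. It was at 194.1 and 170.2 CPM on stiff and 188.0 and 203.3 CPM on soft hydrogel in the WT libraries, and at 406.3 and 326.4 CPM on stiff and 328.7 and 357.9 CPM on soft in the Cav1KO libraries. Every Cav1KO library lay above every WT library, and the substrates overlapped in each genotype. Cav1KO cells had 2.0-fold more on stiff (log2 1.0, SE 0.11, limma adjusted p = 0.000150) and 1.75-fold more on soft (0.81, SE 0.11, limma adjusted p = 0.000458). These calls held in all 18 alternatives tried. The effect of stiffness was -0.10 in WT (interval -0.37 to 0.16) and 0.09 in Cav1KO cells (-0.18 to 0.35), and neither was called.

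Pdia6 (ENSMUSG00000020571, chromosome 12 from 17266545 to 17284770, plus strand, 13 exons), an isomerase that binds Hspa5, followed Calr instead. It was at 287.6 and 310.7 CPM on stiff and 343.0 and 338.8 CPM on soft hydrogel in the WT libraries, and at 505.2 and 486.2 CPM on stiff and 296.1 and 306.4 CPM on soft in the Cav1KO libraries. Cav1KO stiff stood highest and WT soft next, and WT stiff and Cav1KO soft overlapped. Pdia6 was 1.64-fold higher on stiff in Cav1KO cells (log2 0.72, SE 0.07, limma adjusted p = 6.58e-05). In WT cells it was lower (-0.19, SE 0.07, limma adjusted p = 0.0495), at the edge of the threshold, and this call was lost by edgeR (adjusted p = 0.0598), by DESeq2 (adjusted p = 0.0950), with median centring (-0.15, limma adjusted p = 0.149) and without WT stiff replicate 1 or any soft library of either genotype (-0.20 to -0.13, limma adjusted p from 0.0958 to 0.239). The difference between the effects, -0.91 (SE 0.10, limma adjusted p = 0.00351), was called in all 18 alternatives and had the largest size of any member. Cav1KO cells had more on stiff (0.73, SE 0.07, limma adjusted p = 4.74e-05), whereas on soft the effect was -0.18 (limma adjusted p = 0.0558).
The isomerases shifted against each other in Cav1KO soft libraries, whereas Cav1KO stiff overlapped the WT range. Pdia4 stood at 0.548 to 0.675 of Pdia6 in the WT libraries, as ratios of CPM within a library. It stood at 0.804 and 0.671 in Cav1KO stiff and at 1.11 and 1.17 in Cav1KO soft libraries. Pdia6 stood at 0.612 to 0.683 of Pdia3 in WT, 0.634 and 0.643 in Cav1KO stiff, and 0.430 and 0.447 in Cav1KO soft libraries.

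Dnajb9 (ENSMUSG00000014905, chromosome 12 from 44205559 to 44210326, minus strand, 3 exons), a classical target of spliced Xbp1, had the largest stiffness effect of the 10 genes in WT cells. In Cav1KO cells those of Calr and Pdia6 were larger. Dnajb9 was at 18.2 and 20.7 CPM on stiff and 45.1 and 40.6 CPM on soft hydrogel in the WT libraries, and at 20.1 and 22.7 CPM on stiff and 27.5 and 29.9 CPM on soft in the Cav1KO libraries. Soft lay above stiff in both genotypes, WT soft lay above all other libraries, and the stiff groups overlapped. On stiff it was 2.15-fold lower in WT cells (log2 -1.10, SE 0.11, limma adjusted p = 0.000162) and 1.33-fold lower in Cav1KO cells (-0.41, SE 0.11, limma adjusted p = 0.0144). The Cav1KO call was lost without Cav1KO stiff replicate 1 (-0.32, limma adjusted p = 0.0651) or Cav1KO soft replicate 2 (-0.35, limma adjusted p = 0.100), and with median centring (-0.32, limma adjusted p = 0.0518). The effects differed by -0.69 (SE 0.16, limma adjusted p = 0.0373). That call was lost without WT stiff replicate 1, Cav1KO stiff replicate 2 or any soft library of either genotype (-0.77 to -0.60, limma adjusted p from 0.0650 to 0.155), and without the mean-variance trend (limma adjusted p = 0.0523). Between genotypes it was lower in Cav1KO cells on soft (-0.56, SE 0.11, limma adjusted p = 0.00316), and the effect on stiff was 0.13 (interval -0.13 to 0.39). Of its 60-base windows 4.32% are shared with the gene model Gm6568, which the table does not list.

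Xbp1 (ENSMUSG00000020484, chromosome 11 from 5520659 to 5525893, plus strand, 5 exons) was at 61.3 and 73.4 CPM on stiff and 103.9 and 93.9 CPM on soft hydrogel in the WT libraries, and at 76.1 and 85.4 CPM on stiff and 88.2 and 98.6 CPM on soft in the Cav1KO libraries. Stiff lay below soft in each genotype, and the soft groups overlapped. It was 1.47-fold lower on stiff in WT cells (log2 -0.55, SE 0.11, limma adjusted p = 0.00387). The Cav1KO effect was -0.21 (interval -0.46 to 0.05, limma adjusted p = 0.145), and passed the threshold with quantile normalization (-0.34, limma adjusted p = 0.0250). Between the effects the difference was -0.34 (interval -0.70 to 0.01, limma adjusted p = 0.158). Between genotypes it was 0.26 on stiff (limma adjusted p = 0.0779), and called without WT stiff replicate 2 (0.39, limma adjusted p = 0.0324), and -0.08 on soft (-0.34 to 0.17).

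Herpud1 (ENSMUSG00000031770, chromosome 8 from 94386438 to 94395377, plus strand, 8 exons) was at 67.2 and 69.0 CPM on stiff and 107.6 and 98.9 CPM on soft hydrogel in the WT libraries, and at 59.5 and 66.6 CPM on stiff and 73.5 and 74.0 CPM on soft in the Cav1KO libraries. WT soft stood apart above the other groups, as for Dnajb9. On stiff it was 1.51-fold lower in WT cells (log2 -0.59, SE 0.08, limma adjusted p = 0.000612) and 1.17-fold lower in Cav1KO cells (-0.22, SE 0.08, limma adjusted p = 0.0453). The latter call was lost by DESeq2 (adjusted p = 0.108), with median centring (-0.14, limma adjusted p = 0.244), and without either WT stiff library, WT soft replicate 1, Cav1KO stiff replicate 1 or either Cav1KO soft library (-0.23 to -0.14, limma adjusted p from 0.0502 to 0.206). Their difference was -0.37 (SE 0.12, limma adjusted p = 0.0729), and passed without Cav1KO stiff replicate 1 (-0.45, limma adjusted p = 0.0270). Herpud1 was lower in Cav1KO cells on soft (-0.48, SE 0.08, limma adjusted p = 0.00136), and the effect on stiff was -0.11 (interval -0.30 to 0.08).

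Hspa5 in the same library was taken as a reference for the other members. Its own CPM was higher in both stiff than in both soft libraries of each genotype, so a ratio to Hspa5 also moves with Hspa5. The CPM of Pdia4 overlapped between substrates, and that of Pdia3 was higher on stiff in Cav1KO cells. Hsp90b1 stood at 0.508 to 0.604 of Hspa5 in the WT libraries and at 0.879 to 1.05 in the Cav1KO libraries, as ratios of CPM. Pdia4 stood at 0.419 to 0.535 and 0.776 to 0.994 in the same way. Both ratios were higher in all Cav1KO than in all WT libraries, and that of Pdia4 was also higher on soft than on stiff in each genotype, at 0.535 and 0.515 against 0.433 and 0.419 in WT and 0.912 and 0.994 against 0.811 and 0.776 in Cav1KO cells. Pdia3 stood at 1.01 and 1.12 of Hspa5 on stiff and 1.59 and 1.38 on soft in WT, and at 1.59 and 1.8 on stiff and 1.91 and 1.90 on soft in Cav1KO cells, so that its ratio too was higher on soft in each genotype. The ratio of Calr, from 3.19 to 4.21 in WT and 3.27 to 4.65 in Cav1KO libraries, overlapped between genotypes. Dnajb9 stood at 0.0406 and 0.0510 of Hspa5 in WT stiff, 0.128 and 0.103 in WT soft, 0.0401 and 0.0540 in Cav1KO stiff, and 0.0763 and 0.0830 in Cav1KO soft libraries. Herpud1 stood at 0.150 and 0.170, 0.306 and 0.250, 0.119 and 0.158, and 0.204 and 0.205 of Hspa5 in the same order. Xbp1 stood at 0.137 and 0.180, 0.295 and 0.238, 0.152 and 0.203, and 0.245 and 0.274 of Hspa5, again in that order. The Dnajb9, Herpud1 and Xbp1 ratios were higher in all soft than in all stiff libraries.

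**Figure D4:**
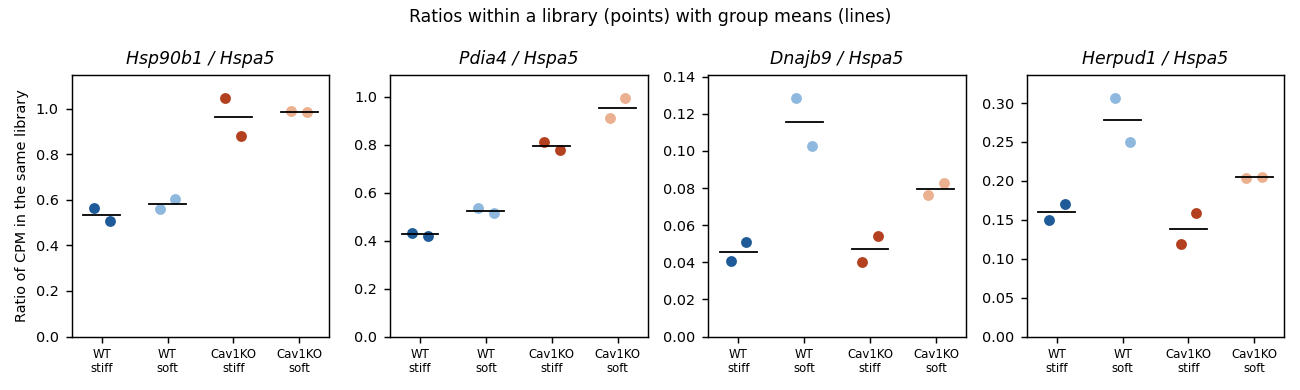
CPM of Hsp90b1, Pdia4, Dnajb9 and Herpud1 divided by CPM of Hspa5 in the same library. Points are libraries, lines are group means, and each panel has its own axis from 0. The Hsp90b1 and Pdia4 ratios separate WT (0.419 to 0.604) from Cav1KO libraries (0.776 to 1.05), and the Dnajb9 and Herpud1 ratios separate all stiff from all soft libraries.

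The likeness of patterns was measured as the root mean square difference over the 8 libraries in log2(CPM + 1), centred on each gene's mean. The closest pairs of members were Hspa5 with Canx (0.100), Calr with Pdia6 (0.118) and Hsp90b1 with Pdia4 (0.130), followed by Calr with Canx (0.172), Hspa5 with Calr (0.178) and Canx with Pdia6 (0.199). Dnajb9 was closest to Herpud1 (0.201), and so was Xbp1 (0.205). Among 10063 genes with a mean of at least 5 CPM, those nearest to Hspa5 lay outside the members: Cep57 (0.0577), Aars (0.0627), Fbxo9 (0.0643), Irak1 (0.0647) and Pkm (0.0671). Canx ranked 57 in that order, Calr 955, Pdia6 2542 and Dnajb9 8062.

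Genes around the members were counted in lists written from general knowledge. For comparison, 22.1% of all genes tested were called higher and 26.3% lower on stiff in WT, and 27.9% and 28.2% for Cav1KO cells, with a median effect of -0.02 in each. The difference between the effects was called above 0 for 4.47% and below 0 for 6.0% of all genes. The genotype effect was called higher for 25.0% and lower for 26.6% on stiff, and higher for 24.1% and lower for 29.9% on soft. No list was tested against all genes or against another list. Other ER chaperones and folding enzymes, 28 of them tested, had 6 called higher and 11 lower on stiff in WT cells and 12 higher and 5 lower in Cav1KO cells, and medians of -0.07 and 0.06. For 6 of the 28 the difference between the effects was called below 0, and it was called above 0 for 0, with 2 at an unadjusted p under 0.05, 0 by edgeR and 2 by DESeq2. Sdf2l1, a partner of Hspa5 and its J-domain co-chaperones, averaged 36.5 ± 5.72 CPM on stiff and 41.2 ± 0.354 CPM on soft in WT, and 79.4 ± 8.97 CPM on stiff and 40.3 ± 5.43 CPM on soft in Cav1KO cells (SD, n = 2 each). It rose with stiffness in Cav1KO cells (0.96, SE 0.14, limma adjusted p = 0.000466), and the difference between the effects was -1.14 (SE 0.19, limma adjusted p = 0.0162). Ero1l, the oxidase that recharges disulfide isomerases, averaged 76.6 ± 1.68 CPM on stiff and 107.0 ± 2.54 CPM on soft in WT, and 33.6 ± 0.970 CPM on stiff and 25.4 ± 0.148 CPM on soft in Cav1KO cells (SD, n = 2 each). It was lower in Cav1KO cells on stiff (-1.16, SE 0.07, limma adjusted p = 4.61e-06) and on soft (-2.03, SE 0.07, limma adjusted p = 1.62e-07), opposite to Pdia3 and Pdia4. Between genotypes the list had 6 higher and 10 lower in Cav1KO cells on stiff and 6 higher and 14 lower on soft. The peptidyl-prolyl isomerase Fkbp14 was lower on stiff in both genotypes (-0.98 in WT, limma adjusted p = 8.30e-05, and -1.02 in Cav1KO, limma adjusted p = 3.60e-05).

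Of 16 stress sensors and genes of the PERK-ATF4 branch, 1 was called higher and 6 lower on stiff in WT cells, and 6 higher and 8 lower in Cav1KO cells, at medians of -0.13 and -0.28. Ddit3, which encodes the stress factor CHOP, averaged 6.44 ± 0.00944 CPM on stiff and 18.5 ± 0.202 CPM on soft in WT, and 4.70 ± 0.566 CPM on stiff and 12.3 ± 0.0766 CPM on soft in Cav1KO cells (SD, n = 2 each). It was lower on stiff in both genotypes (-1.39, limma adjusted p = 8.59e-05, and -1.23, limma adjusted p = 7.80e-05). Trib3, a target of CHOP, was lower on stiff in WT cells (-1.45, SE 0.11, limma adjusted p = 4.73e-05), and the difference between the effects was -1.01 (limma adjusted p = 0.010). The sensor Eif2ak3, or PERK, was lower on stiff in both genotypes, at -0.79 in WT (limma adjusted p = 0.000777) and -0.86 for Cav1KO cells (limma adjusted p = 0.000368). The sensor Ern1 had an effect of -0.07 in WT (limma adjusted p = 0.670) and was lower on stiff in Cav1KO cells (-0.42, limma adjusted p = 0.0205). The sensor Atf6 had effects of 0.11 and -0.23, neither called, and was higher in Cav1KO cells on soft (0.71, SE 0.17, limma adjusted p = 0.00749). Mbtps1, the protease that cuts Atf6, was higher in Cav1KO cells on stiff (1.28, limma adjusted p = 2.39e-06) and on soft (1.42, limma adjusted p = 1.17e-06). None of the 6 genes called higher on stiff in Cav1KO cells is among those named so far. Atf4, added outside the naming rule after its values were seen, was at 152.1 and 159.7 CPM on stiff in WT libraries. It was at 149.5 and 154.1 CPM on soft there. In Cav1KO libraries Atf4 was at 176.5 and 182.8 CPM on stiff and 105.0 and 108.6 CPM on soft. For the whole list the difference between the effects was called above 0 for 1 and below 0 for 4, and the genotype effect for 5 higher and 3 lower on stiff and 4 higher and 6 lower on soft.

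ER-associated degradation, with 22 genes tested, had 3 higher and 9 lower on stiff in WT cells and 9 higher and 9 lower in Cav1KO cells, at medians of -0.20 and -0.16. The difference was called above 0 for 1 and below 0 for 3. Between genotypes 4 were higher and 6 lower in Cav1KO cells on stiff, and 3 higher and 10 lower on soft. Os9 and Erlec1, lectins that pass misfolded glycoproteins to the ligase of which Herpud1 is a part, were lower on stiff, with effects of -1.63 for Os9 in Cav1KO cells (limma adjusted p = 2.99e-05) and, for Erlec1, of -1.0 in WT (limma adjusted p = 0.000993) and -0.89 for Cav1KO cells (limma adjusted p = 0.00133). The difference between the effects was 0.75 for Os9 (SE 0.18, limma adjusted p = 0.0413), the gene of this list called above 0. Edem1, which trims sugars of misfolded chains, had a difference between the effects of -0.71 (limma adjusted p = 0.00946). Of 20 genes for ER entry, 3 were called higher and 2 lower on stiff in WT cells and 10 higher and 2 lower in Cav1KO cells, with medians of -0.03 and 0.22. The difference was called below 0 for 3 and above 0 for 0, with 1 at an unadjusted p under 0.05, 0 by edgeR and 0 by DESeq2. Spcs3, a signal peptidase subunit, rose with stiffness by 0.47 in WT (limma adjusted p = 0.00229) and by 1.05 for Cav1KO cells (limma adjusted p = 3.30e-05). Between genotypes this list had 5 higher and 2 lower in Cav1KO cells on stiff and 3 higher and 8 lower on soft.

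Chaperones outside the ER were counted in the same way. Of 21 cytosolic and mitochondrial chaperones, 16 were called higher and 0 lower on stiff in WT cells, with 0 lower at an unadjusted p under 0.05, 0 by edgeR and 0 by DESeq2, and 15 were called higher and 2 lower in Cav1KO cells. The median effect was 0.66 in WT and 0.62 in Cav1KO cells. The mitochondrial chaperonin Hspd1 averaged 919.8 ± 51.5 CPM on stiff and 441.1 ± 41.2 CPM on soft in WT, and 1199 ± 64.4 CPM on stiff and 531.6 ± 2.69 CPM on soft in Cav1KO cells (SD, n = 2 each), an effect of 1.06 (limma adjusted p = 7.15e-05) and 1.17 (limma adjusted p = 2.50e-05). The cytosolic Hsph1, a nucleotide exchange factor of Hsp70, rose by 1.72 in WT cells (SE 0.19, limma adjusted p = 0.000224). The difference between the effects was called above 0 for 1 and below 0 for 1 of the 21, and the genotype effect for 6 higher and 6 lower on stiff and 7 higher and 7 lower on soft. Hspb1 averaged 79.3 CPM on stiff and 77.3 CPM on soft in WT, and 0.0294 and 0 CPM in Cav1KO cells. Hsph1 was higher in Cav1KO cells on soft (1.12, SE 0.19, limma adjusted p = 0.00132).

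**Figure D5:**
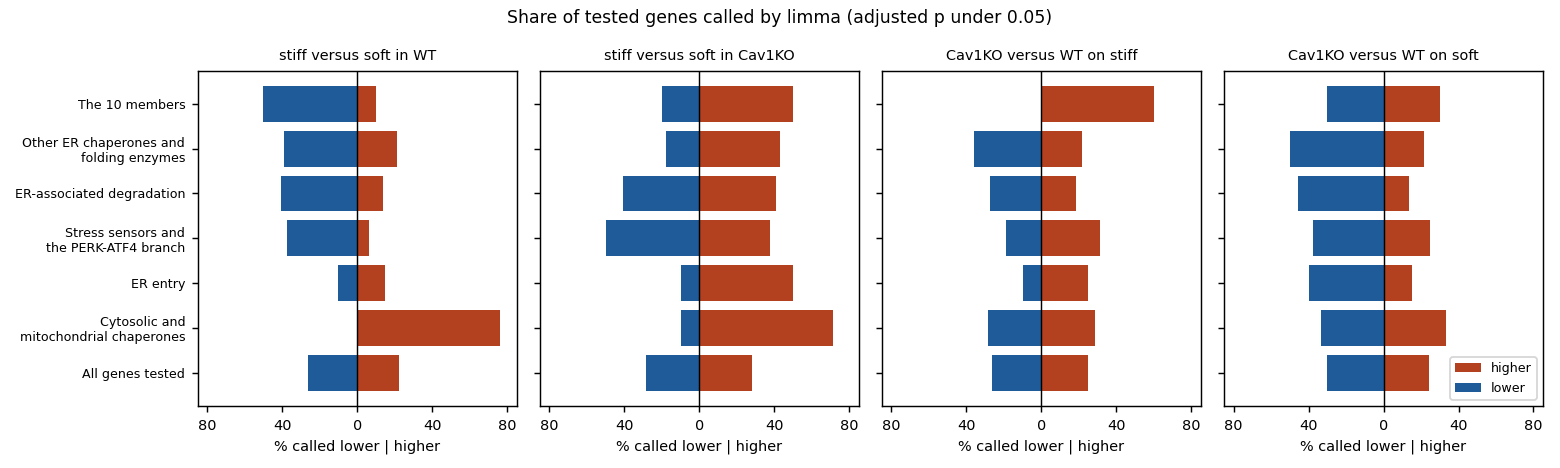
Share of genes called by limma at an adjusted p under 0.05, higher to the right and lower to the left, for the 10 members, the 5 related lists and all genes tested. Cytosolic and mitochondrial chaperones are mostly higher on stiff in both genotypes (16 and 15 of 21), whereas of the 10 members 5 are lower and 1 higher in WT cells, and 5 higher and 2 lower in Cav1KO cells.

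The element ERSE was in the promoter window of 37 genes, 32 of them outside the members, and 9 of those passed the filter. They were picked by their promoters, not by the naming rule for listed genes, and after values were known: Acacb, Adcy3, Alg12, Creld2, Dnajc3, Hnrnpa3, Pan2, Syvn1 and Zfp57. On stiff, 2 were called higher and 2 lower in WT cells, and 2 higher and 5 lower in Cav1KO cells. Over all genes tested, 22.1% were called higher and 26.3% lower in WT, and 27.9% and 28.2% in Cav1KO cells. Of the 5 members with ERSE, 1 (Canx) was called higher and 1 (Pdia6) lower in WT cells, and 4 were called higher in Cav1KO cells. Creld2, an ER-resident factor, was called higher on stiff in both genotypes (0.31, limma adjusted p = 0.0304, and 0.74, limma adjusted p = 0.000377). Syvn1, the ubiquitin ligase that Herpud1 organizes, was lower in both (-0.39, limma adjusted p = 0.0246, and -0.46, limma adjusted p = 0.00991). The difference between the effects had a median of 0.13 over the 9 genes, against -0.36 for the members. It was called for 1 of them (Acacb, above 0), where 4.47% of all genes were called above and 6.0% below 0. Between genotypes 2 of the 9 were higher and 1 lower in Cav1KO cells on stiff, against 25.0% and 26.6% of all genes. On soft 5 were higher and 1 lower, against 24.1% and 29.9%.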

How the data were processed

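The deposited table gives TMM-normalized read counts on the CPM scale (a signal) for 8 libraries. Per the labels, the authors prepared poly(A) libraries from 500 ng of RNA with a kit not described as stranded and sequenced 60-base single reads. The submitters' processing notes name GRCm38, CASAVA 1.8.2, cutadapt and RSEM 1.2.3, without roles. The filter on genes, the annotation and the test are not given in the sources used here. All values were whole multiples of the smallest step (tolerance 0.01), which gave the reads of each library, so CPM was read as a count divided by an effective library size.

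The 12494 genes that reached 1 CPM in 2 or more libraries were fitted with limma 3.58.1 (R 4.3.3) on log2(CPM + 1), all 4 groups in a single model with a mean-variance trend and 4 residual degrees of freedom. P-values were two-sided and Benjamini-Hochberg adjusted over these genes. The log2(CPM + 1) scale understates the change of low genes. edgeR 4.0.16 and DESeq2 1.42.0 on the recovered reads were alternatives, with other pseudocounts, filters, scalings, a replicate block and each library left out. Code was tested on simulated data. Coordinates are from GENCODE on GRCm38 and promoters from RefSeq. From each related list the 2 largest changes past the threshold per comparison could be named, with Atf6, Ern1 and Eif2ak3, and other genes only as stated. Members and lists were chosen with earlier results of these data known.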

Additional observations from a re-analysis of the deposited data

Results flagged for a closer look

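The test of the difference between the stiffness effects (limma, adjusted over all genes) called 4 members below 0, where 6.0% of all genes were. Each difference is given as the WT effect minus the Cav1KO effect in log2 units. For Pdia6 it was -0.91, with an effect of -0.19 in WT and 0.72 in Cav1KO cells. For Calr it was -0.77 (-0.05 in WT, 0.72 in Cav1KO). For Dnajb9 it was -0.69, both effects being below 0 (-1.10 in WT, -0.41 in Cav1KO). For Pdia3 it was -0.47 (-0.29 in WT, 0.18 in Cav1KO). The stiff and soft libraries of each genotype did not overlap for any of the 4 genes. For Calr in WT cells they lay close, at up to 1474 CPM on stiff and from 1482 CPM on soft, and that effect was not called (limma adjusted p = 0.637). The call of a difference was kept in all 18 alternatives for Pdia6, in 16 for Calr, in 12 for Pdia3 and in 11 for Dnajb9.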

How the results depend on the processing

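Over 900 combinations of a member, a comparison and an alternative, 819 kept the direction and the side of the threshold, 69 lost a call, 5 gained 1 and 7 turned the direction of a value that was not called. The count called higher in WT cells on stiff (1) was 0 without the mean-variance trend and 0 with quantile normalization, and 0 to 1 with a library left out. The count called higher in Cav1KO cells (5) was 3 with quantile normalization and 3 to 5 with a library left out. The count called lower there (2) was 1 without the trend, 0 with median centring, 1 by DESeq2 and 0 to 2 with a library left out. The count of differences below 0 (4) was 2 without the trend, where that over all genes fell from 750 to 391. Both counts also changed with a library left out. Over all genes, calls higher on stiff in WT cells numbered 2763, 2575 without the trend and 3209 with quantile normalization. In Cav1KO cells they numbered 3488, and 3826 with quantile normalization. Calls lower there numbered 3527, 3497 without the trend, 2960 with median centring and 2995 by DESeq2. The cause of these changes was not tested. Leaving out a library leaves fewer samples and also changes the estimate of the spread, which all comparisons share. Calls in either genotype were therefore also lost without a library of the other, while the effect itself stayed the same. The replicate numbers tie the samples to no shared day, and deviations of same-numbered libraries correlated from -0.37 to 0.41 between groups. With a replicate block the count called lower in Cav1KO cells was 1, Herpud1 being lost, and Pdia6 in WT (adjusted p = 0.0574) and Pdia3 in Cav1KO cells (adjusted p = 0.0533) were lost as well.

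Directions turned for Pdia4 in Cav1KO cells with quantile normalization (-0.0454). With a library left out, values spanned -0.0724 to 0.214 for Hsp90b1 in WT, -0.0716 to 0.244 for Pdia4 in Cav1KO cells, -0.486 to 0.0155 for the difference between effects of Hsp90b1, and -0.0221 to 0.230 on stiff and -0.133 to 0.0352 on soft for Hspa5 between genotypes. The member with the fewest reads held 341 in a library, and each group had 2 libraries.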
